A study of Mus musculus with 12 samples.

Results

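The genes of the DNA replication machinery were followed in germ cells and somatic cells of the mouse embryonic gonad. They were chosen by symbol: the origin recognition complex, the loaders Cdc6 and Cdt1 with geminin, the numbered Mcm genes, Cdc45 and the GINS subunits, the Cdc7 kinase with Dbf4, primase and the replicative polymerases, the sliding clamp and its loader, replication protein A, Fen1, Lig1 and ribonucleotide reductase. Of 50 names so defined, 49 had a row among the 12845 genes of the deposited tables, and Pold4 was not analysed here. Each of the 49 genes had at least 52 reads in every library.

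The study addressed hypertranscription, a global rise of transcript output per cell, in primordial germ cells (PGCs) of E13.5 embryos. Dams were mated to males carrying the germ cell reporter Oct4GFP, and the strain is given as Oct4GFPxICR for all embryos. A cell sorter divided the gonad cells by GFP, with the positive cells taken as PGCs and the negative cells as soma. Both sexes were kept apart, which gave 4 groups of 3 libraries: PGC and soma from males, and PGC and soma from females. No group received a treatment. The soma is a mixture, since every GFP-negative cell of the gonad falls into it. The labels do not say whether the replicates came from separate litters, so p-values measure the spread between these libraries.

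Replication is prepared in G1, when the origin recognition complex, Cdc6 and Cdt1 load the ring-shaped Mcm helicase onto DNA. In S phase the Dbf4-dependent Cdc7 kinase helps to recruit Cdc45 and GINS, which turn the ring into the active helicase. Primase and DNA polymerase alpha then start each strand, polymerases epsilon and delta extend the leading and lagging strands on the sliding clamp, and replication protein A coats single-stranded DNA. At this age male mouse germ cells are leaving the mitotic cycle for arrest in G1, while female germ cells pass through premeiotic S phase into meiotic prophase. Most replication genes are transcribed from promoters that E2F factors bind at the transition from G1 to S phase.

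Promoter windows from RefSeq (GRCm38.p6, 250 bases before to 50 bases after each start) were matched to 41 of the 49 genes, with 51 windows between them. The letters TTTCCCGC, TTTCGCGC, TTTGCCGC and TTTGGCGC, the 8-base forms of the E2F motif, were searched on both strands, and the forms can overlap one another. At least 1 form was present in 18 of the 51 windows (35.3%), against 3.96% of 12536 windows of all tested genes and 2.26% of all 32851 windows in the table. CCAAT, the letters that NF-Y recognises, was found in 52.9% of the replication windows, 37.6% of the windows of tested genes and 37.4% of all windows. The replication windows had a median of 24 CpG dinucleotides, the windows of tested genes 21 and all windows 7. These shares describe letters in a window and say nothing of binding.

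Of the 10 genes of the Mcm ring and GINS, Mcm2, Mcm3, Mcm5, Mcm6, Mcm7 and Gins3 had a window, and 5 of these 6 had such a match. Their promoters are shown because the genes encode subunits of the same helicase and, as given further on, Mcm5 and Gins3 were higher and Mcm6 and Mcm7 lower in female than in male PGCs, while Mcm3 did not pass. Each sequence runs 5′ to 3′ on the gene's own strand from 250 bases before to 30 bases after the RefSeq start, and capitals mark the E2F letters.
Mcm3, chr1:20820283-20820562, minus strand: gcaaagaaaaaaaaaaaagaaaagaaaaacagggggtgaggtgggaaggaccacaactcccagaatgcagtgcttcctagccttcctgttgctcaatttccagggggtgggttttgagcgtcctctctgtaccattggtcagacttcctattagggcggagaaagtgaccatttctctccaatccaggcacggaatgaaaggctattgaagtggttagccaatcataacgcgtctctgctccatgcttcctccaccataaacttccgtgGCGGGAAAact
Mcm5, chr8:75109259-75109538, plus strand: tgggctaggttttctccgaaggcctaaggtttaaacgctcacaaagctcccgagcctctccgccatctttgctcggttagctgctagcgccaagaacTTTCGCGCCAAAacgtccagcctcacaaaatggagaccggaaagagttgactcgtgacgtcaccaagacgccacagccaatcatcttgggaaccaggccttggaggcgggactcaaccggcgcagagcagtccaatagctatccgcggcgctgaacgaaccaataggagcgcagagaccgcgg
Mcm6, chr1:128359676-128359955, minus strand: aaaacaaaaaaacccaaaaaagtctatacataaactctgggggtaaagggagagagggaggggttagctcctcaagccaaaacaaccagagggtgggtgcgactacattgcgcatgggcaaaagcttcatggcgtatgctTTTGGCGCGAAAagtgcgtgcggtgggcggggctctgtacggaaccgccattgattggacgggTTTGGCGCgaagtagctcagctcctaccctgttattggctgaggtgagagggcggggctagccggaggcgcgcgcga
Mcm7, chr5:138171854-138172133, minus strand: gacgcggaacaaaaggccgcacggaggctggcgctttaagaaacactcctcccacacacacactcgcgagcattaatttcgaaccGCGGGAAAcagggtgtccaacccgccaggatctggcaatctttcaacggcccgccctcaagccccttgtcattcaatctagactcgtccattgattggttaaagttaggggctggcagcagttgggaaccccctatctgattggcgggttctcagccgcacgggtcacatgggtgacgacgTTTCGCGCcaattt
Gins3, chr8:95633309-95633588, plus strand: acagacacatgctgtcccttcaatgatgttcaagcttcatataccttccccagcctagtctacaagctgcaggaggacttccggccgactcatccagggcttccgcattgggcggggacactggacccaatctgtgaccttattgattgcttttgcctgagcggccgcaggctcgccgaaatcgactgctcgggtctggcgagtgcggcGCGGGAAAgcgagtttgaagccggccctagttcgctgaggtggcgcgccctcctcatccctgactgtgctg
In Mcm5 2 overlapping matches began 153 and 149 bases before the start. Mcm6 had 3 matches between 110 and 47 bases before it. Mcm7 had matches 165 bases before and 17 bases after it, Gins3 a single match 41 bases before it, and Mcm3 matches 20 and 39 bases after it, the latter outside the printed stretch. A further window of Mcm7 had no match and is not shown. For Mcm5 and Mcm6 the bases after the RefSeq start were in no GENCODE vM21 transcript of the gene, so their distances are less certain. Of the 15 matched genes that were higher in female than in male PGCs 10 held the letters, as did 2 of the 8 that were lower and 5 of the 18 that were not called. Among all tested genes with a window 4.83% held them. That share was not split by call, so a link between the letters and the change was not tested.

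Library depth, as reads over the 12845 genes, ran from 6454322 reads (female PGC replicate 2) to 24791414 reads (male soma replicate 2). The sort separated the cell types: the summed level of 6 germ cell markers was 3234 to 4768 CPM (reads scaled to a common library total) in PGC libraries and 9.76 to 155 CPM in soma libraries. Of the 7 gonadal soma markers the sum was 610 to 1766 CPM in soma and 11.1 to 101 CPM in PGCs. All 6 germ cell markers passed as higher, and all 7 gonadal soma, 4 stroma, 6 erythroid, 3 endothelial and 4 macrophage markers as lower, in PGCs of each sex. Erythroid transcripts made up 17590 to 29540 CPM of female soma, 3383 to 8578 CPM of male soma and at most 9.94 CPM of any PGC library. Male PGC replicate 2 stood apart: it was the highest of the 3 male PGC libraries for 43 of the 49 replication genes, against 35.7% of all genes. Its replication genes were a median of 0.39 log2 units above the other male PGC libraries, while all genes were at -0.02. Female soma replicates 1 and 2 held 99.0 and 155 CPM of germ cell markers, against 15.5 CPM in replicate 3 and 9.76 to 17.3 CPM in male soma. Calls of single replication genes that were lost in the read depth table without one of these libraries are named with their results.

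Replication transcripts took a larger share of the reads in PGCs than in soma of either sex. Together the 49 genes made up 6770, 8449 and 6545 CPM in the male PGC libraries and 3666, 3509 and 3553 CPM in male soma. They made up 8197, 7892 and 8453 CPM in female PGCs and 3332, 3962 and 3758 CPM in female soma. As a share of the reads over the 12845 genes, male PGCs had 0.725% ± 0.104 against 0.358% ± 0.00812 in their soma. Female PGCs had 0.818% ± 0.0281 against 0.368% ± 0.0321 (SD, n = 3 for each value). The lowest PGC library exceeded the highest soma library, and the soma of the sexes overlapped. In bulk RNA, fewer cells of a type and less RNA per cell cannot be told apart.

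**Figure D1:**
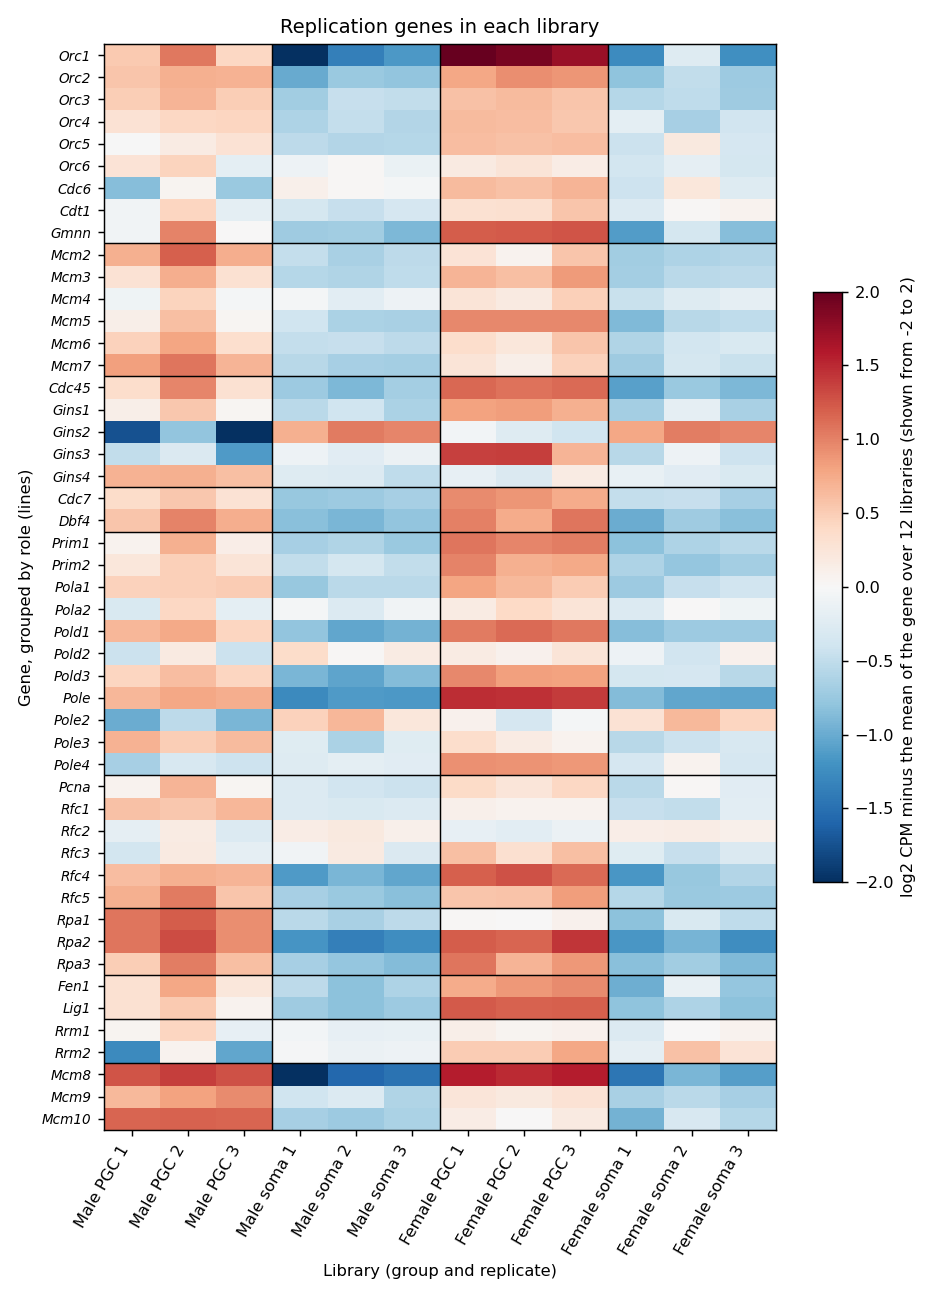
Log2 CPM of each of the 49 replication genes (vertical axis, grouped by role) in each of the 12 libraries (horizontal axis), as the difference from the gene's mean over the libraries, shown from -2 to 2. Most genes are above their mean in PGC columns, Gins2 and Pole2 are above it in soma columns, and male PGC replicate 2 is redder than its group for 43 genes.

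All 49 genes were located in GENCODE vM21 (GRCm38), among them Rpa1 (chr11:75298166-75348324, minus strand), Mcm10 (chr2:4989714-5012791, minus strand), Gins3 (chr8:95633453-95645060, plus strand) and Rrm2 (chr12:24708241-24714146, plus strand). Per kilobase of transcript, Pcna, the sliding clamp, had the highest mean level over the 12 libraries at 168 CPM per kilobase. Mcm6 followed at 121, Mcm7 at 106, Lig1 at 97.3 and Rpa2 at 91.9 CPM per kilobase. The lowest were Gins2 at 4.9, Mcm9 at 5.3 and Pole2 at 8.6 CPM per kilobase. Gins2 and Mcm6, whose proteins sit in the same active helicase, were thus at opposite ends of the range. Exons of Gins2 overlap Gse1 on the opposite strand over 67.3% of their length, those of Fen1 overlap other genes over 84.2%, those of Orc2 over 29.8% and those of Mcm9 over 19.2%. The library kit marks strand, but the sources used here do not give the setting used in counting, so these 4 genes are less certain. Exons of Pole2 overlap the protein-coding gene Gm49384 on the same strand over 8.5% of their length. Pcna has processed pseudogenes (Pcna-ps1 and Pcna-ps2) that could share its reads.

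In the read depth table, 39 of the 49 genes were higher in male PGCs than in male soma and 2 were lower (limma, adjusted p under 0.05, where 39.1% of all 12845 genes were higher and 43.7% lower). The median log2 change of the replication genes was 0.89, against -0.06 over all genes. Between female PGCs and female soma 42 were higher and 3 lower (38.7% and 42.3% of all genes), with a median of 0.83 against -0.05. In CPM, 36 genes lay above and 4 below the soma in all 3 male PGC libraries (37.6% and 47.4% of all genes), and 42 above and 3 below in the female libraries (39.1% and 42.7%). Without male PGC replicate 2 the male count was 36 higher and 6 lower. With voom on the recovered reads the medians were 1.18 in males and 1.14 in females. Log2 changes in the read depth table are thus not log2 ratios of the CPM given beside them, and can be smaller. Between female and male PGCs, for example, Gins3 differed by 1.14 there and by 1.61 with voom.

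All 6 origin recognition subunits passed as higher in PGCs of both sexes, from Orc6 (0.28 in males, 0.37 in females) to Orc1. Orc6 overlapped between PGCs and soma in males, and its male call was lost without male PGC replicate 1 or 2 or male soma replicate 1 or 3 (0.17 and adjusted p = 0.135 without male PGC replicate 2). Orc1, the subunit of the complex that changes through the cell cycle, was at 41.3, 59.8 and 38.2 CPM in male PGCs and 5.68, 11.2 and 12.9 CPM in male soma. It was at 115, 108 and 94.8 CPM in female PGCs and 12.0, 24.1 and 12.3 CPM in female soma. All PGC values exceeded all soma values. The log2 change of Orc1 was 1.72 ± 0.21 (SE; limma adjusted p = 3.26e-06) in males and 2.08 ± 0.21 (adjusted p = 4.88e-07) in females. Orc1 made up 7.94% of the complex's transcripts per kilobase in male PGCs and 15.3% in female PGCs, against 3.21% and 5.03% in the soma.

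The loading factors were less uniform. Gmnn, which encodes geminin, the inhibitor that keeps Cdt1 from loading helicase again after S phase has begun, was at 46.2, 96.6 and 48.8 CPM in male PGCs, with replicate 2 well above the others. In male soma it was at 29.7, 29.9 and 26 CPM, in female PGCs at 113, 113 and 117 CPM, and in female soma at 22.3, 38.0 and 26.9 CPM. Gmnn rose by 0.90 ± 0.18 (adjusted p = 0.000374) in males and 1.52 ± 0.18 (adjusted p = 2.7e-06) in females. Cdt1 itself rose by 0.42 ± 0.11 in males and 0.35 ± 0.11 in females, where the call was lost without female PGC replicate 3 (0.29, adjusted p = 0.0515) or female soma replicate 1 (0.27, adjusted p = 0.0618). Cdc6, the ATPase that works with the origin recognition complex, was at 21.8, 40.8 and 23.4 CPM in male PGCs and 42.0, 39.8 and 38.2 CPM in male soma. In females Cdc6 was at 60.4, 58.6 and 63.0 CPM in PGCs and 29.3, 46.0 and 32.7 CPM in soma, and rose by 0.58 ± 0.15 (adjusted p = 0.00319). The male log2 difference of Cdc6 was -0.30 ± 0.15 (adjusted p = 0.0799), and without male PGC replicate 2 it was -0.51 and passed as lower (adjusted p = 0.00122).

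All 6 subunits of the Mcm helicase ring (Mcm2 to Mcm7) passed as higher in PGCs of both sexes, from Mcm4 at 0.27 in males and 0.47 in females to Mcm7 at 1.29 in males and Mcm5 at 1.29 in females. Mcm6, the subunit with the highest level, was at 458, 573 and 421 CPM in male PGCs, 239, 242 and 230.4 CPM in male soma, 426, 390.0 and 488 CPM in female PGCs and 219.9, 257 and 268 CPM in female soma. Its log2 change was 0.91 ± 0.09 (adjusted p = 4.62e-07) in males and 0.64 ± 0.09 (adjusted p = 1.87e-05) in females. Mcm4 in males lost its call without male PGC replicate 2 (0.14, adjusted p = 0.132), male soma replicate 2 (0.24, adjusted p = 0.079) or male soma replicate 3 (0.27, adjusted p = 0.0538).

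Mcm5 and Mcm7 differed in opposite directions between the PGC groups. Mcm7 was at 507, 601 and 459 CPM in male PGCs, 196, 179.7 and 179 CPM in male soma, 340.3, 309.6 and 392 CPM in female PGCs and 174, 225 and 210.0 CPM in female soma. Mcm5 was at 294, 411 and 279 CPM in male PGCs, 206, 176 and 173 CPM in male soma, 528, 530.2 and 532 CPM in female PGCs and 147, 185 and 191 CPM in female soma. Mcm7 was thus highest in male PGCs and Mcm5 in female PGCs, and neither overlapped between the PGC groups. The rise over soma was 1.29 ± 0.09 (adjusted p = 1.27e-08) for Mcm7 and 0.74 ± 0.11 (adjusted p = 2.16e-05) for Mcm5 in males. In females it was 0.61 ± 0.09 (adjusted p = 3.19e-05) for Mcm7 and 1.29 ± 0.11 (adjusted p = 7.95e-08) for Mcm5.

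Among the activators of the helicase, Cdc45 rose in both sexes and the GINS subunits did not move together. Cdc45 was at 64.8, 99.5 and 62.7 CPM in male PGCs, 30.7, 27.1 and 31.5 CPM in male soma, 112, 107 and 111 CPM in female PGCs and 23.9, 30.4 and 27.2 CPM in female soma. Its log2 change was 1.08 ± 0.12 (adjusted p = 1.03e-06) in males and 1.53 ± 0.12 (adjusted p = 3.19e-08) in females. Gins1 rose in both sexes (0.62 in males, 0.93 in females). Gins4 was at 72.8, 73.1 and 68.3 CPM in male PGCs and 37.4, 37.0 and 31.6 CPM in male soma, and rose by 0.85 ± 0.09 (adjusted p = 7.71e-07). In females Gins4 was at 40.1, 36.7 and 50 CPM in PGCs and 40.3, 38.4 and 36.1 CPM in soma, and did not pass (0.10 ± 0.09, adjusted p = 0.332). Gins3 showed the reverse, with 15.0, 17.4 and 9.60 CPM in male PGCs, 19.7, 18.1 and 19.5 CPM in male soma, 54.6, 54.9 and 33.9 CPM in female PGCs and 14.4, 19.6 and 15.9 CPM in female soma. It rose by 1.05 ± 0.16 (adjusted p = 3.3e-05) in females, and the male difference was -0.25 ± 0.16 (adjusted p = 0.171).

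Gins2 and Pole2 were the genes called lower in PGCs of both sexes. In CPM, Gins3 and Pole4 also lay below soma in all male PGC libraries, but did not pass. Gins2 was at 4.54, 8.78 and 3.16 CPM in male PGCs, 24.9, 31.4 and 29.9 CPM in male soma, 14.7, 12.7 and 11.6 CPM in female PGCs and 26, 31 and 30 CPM in female soma. The highest PGC library was below the lowest soma library. Gins2 fell by 1.52 ± 0.17 (adjusted p = 1.34e-06) on the log2 scale in males and by 0.78 ± 0.17 (adjusted p = 0.000765) in females. Pole2, the second subunit of polymerase epsilon, was at 6.93, 9.56 and 7.28 CPM in male PGCs, 19.0, 21.8 and 16.0 CPM in male soma, 14.6, 10.8 and 13.4 CPM in female PGCs and 16.8, 21.5 and 18.6 CPM in female soma. It fell by 0.71 ± 0.12 (adjusted p = 0.000116) in males and by 0.35 ± 0.12 (adjusted p = 0.0191) in females, though the female call was lost with voom, with median centring and without female PGC replicate 2 or female soma replicate 2. The third gene lower in females, Rfc2, fell by 0.22 ± 0.08 (adjusted p = 0.0239), a call lost with voom, with median centring and without female PGC replicates 1 or 2 or female soma replicate 1.

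**Figure D2:**
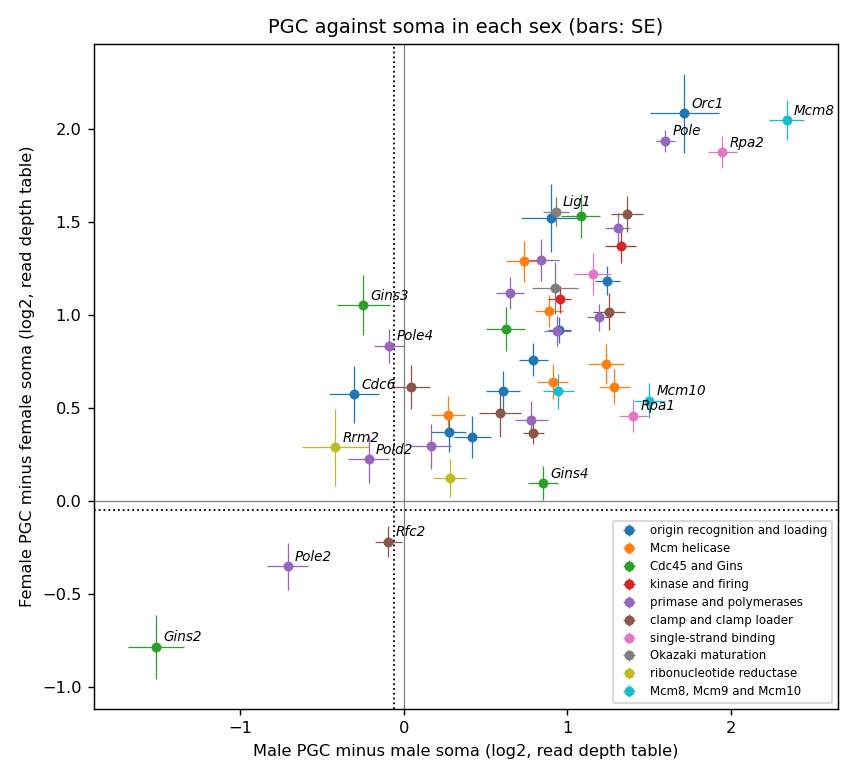
Log2 change of PGC against soma in males (horizontal axis) and in females (vertical axis) for the 49 genes in the read depth table, coloured by role, with bars for the SE and dotted lines at the medians of all genes (-0.06 and -0.05). Most genes are in the upper right; Gins2 and Pole2 are at the lower left, Gins3 and Pole4 are above 0 on the female axis and just below it on the male axis, and Gins4 is near 0 on the female axis.

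The kinase that fires origins rose in both its parts. Dbf4, the regulatory subunit, was at 114, 154 and 128 CPM in male PGCs, 43.6, 41.1 and 44.9 CPM in male soma, 155, 129 and 162 CPM in female PGCs and 38.8, 47.4 and 43.5 CPM in female soma. Its log2 change was 1.33 ± 0.09 (adjusted p = 9.36e-09) in males and 1.37 ± 0.09 (adjusted p = 8.75e-09) in females. Cdc7, the catalytic subunit, was at 132, 149.6 and 126 CPM in male PGCs, 61.2, 62.3 and 65.1 CPM in male soma, 199, 189.6 and 172 CPM in female PGCs and 74.3, 74.9 and 65.3 CPM in female soma. It rose by 0.96 ± 0.07 (adjusted p = 1.53e-08) and 1.08 ± 0.07 (adjusted p = 5.54e-09).

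The catalytic subunits of polymerases epsilon and delta had the largest log2 changes of their complexes in both sexes. Pole, the catalytic subunit of polymerase epsilon, was at 293, 315 and 305 CPM in male PGCs, 76.2, 83.8 and 83.1 CPM in male soma, 513, 507 and 485 CPM in female PGCs and 101, 90.1 and 88.8 CPM in female soma. Its log2 change was 1.6 ± 0.06 (adjusted p = 1.27e-11) in males and 1.94 ± 0.06 (adjusted p = 1.42e-11) in females. Of polymerase delta, Pold1 (catalytic) was at 295, 316 and 250 CPM in male PGCs, 108, 90.3 and 97.1 CPM in male soma, 382, 409 and 387 CPM in female PGCs and 103, 112 and 112 CPM in female soma. Pold1 rose by 1.31 ± 0.08 (adjusted p = 1.27e-09) and 1.47 ± 0.08 (adjusted p = 6.4e-10), and Pold3 by 1.2 and 0.99. Pold2 did not pass in males (-0.21 ± 0.13, adjusted p = 0.132) or in females (0.23 ± 0.13, adjusted p = 0.116), and without male PGC replicate 2 it passed as lower in males at -0.37 and as higher in females. Of polymerase alpha and primase, Pola1, Prim1 and Prim2 rose in both sexes, while Pola2 was at 0.17 ± 0.12 (adjusted p = 0.223) in males and passed in females at 0.29 ± 0.12 (adjusted p = 0.0387). The female Pola2 call was lost with voom (adjusted p = 0.0547) and without female PGC replicate 2 or 3 or female soma replicate 1 or 3, with 0.24 and adjusted p = 0.131 without female soma replicate 1.

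Pole4, a histone-fold subunit of polymerase epsilon, was at 31.8, 40.4 and 37.7 CPM in male PGCs, 42.0, 44.1 and 43.1 CPM in male soma, 95.2, 94.2 and 92.4 CPM in female PGCs and 40.0, 52.8 and 39.8 CPM in female soma. Female PGCs were thus the group set apart. Pole4 rose by 0.83 ± 0.09 (adjusted p = 9.06e-07) in females, and the male difference was -0.09 ± 0.09 (adjusted p = 0.365). Its partner Pole3 rose in both sexes (0.78 in males, 0.44 in females).

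Of the clamp and its loader, Pcna, Rfc1, Rfc4 and Rfc5 rose in both sexes and Rfc3 in females. Pcna was at 259, 395 and 253 CPM in male PGCs, 204, 189 and 184 CPM in male soma, 324, 293 and 328 CPM in female PGCs and 170.3, 252 and 210.2 CPM in female soma. Its rise was 0.59 ± 0.13 (adjusted p = 0.000636) in males and 0.47 ± 0.13 (adjusted p = 0.00346) in females. Rfc4, a small subunit of the loader, was at 78.9, 84.1 and 82.1 CPM in male PGCs, 23.5, 27.3 and 25.1 CPM in male soma, 117, 125 and 112 CPM in female PGCs and 23.0, 30.4 and 34.5 CPM in female soma. It rose by 1.36 ± 0.10 (adjusted p = 1.09e-08) and 1.54 ± 0.10 (adjusted p = 4.11e-09), the most of the 5 loader subunits in each sex.

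Replication protein A rose as a whole, but its large subunit did so far less in females. Rpa2, the middle subunit, was at 256, 300.0 and 233 CPM in male PGCs, 54.1, 47.4 and 51.5 CPM in male soma, 282, 275 and 330.0 CPM in female PGCs and 54.7, 64.1 and 51.6 CPM in female soma. Its log2 change was 1.95 ± 0.09 (adjusted p = 9.49e-11) in males and 1.88 ± 0.09 (adjusted p = 2.4e-10) in females. Rpa1, the large subunit, was at 360.4, 399 and 326 CPM in male PGCs, 118, 109 and 119 CPM in male soma, 175, 173 and 182 CPM in female PGCs and 96.9, 139 and 121 CPM in female soma. Male and female PGC libraries did not overlap. Rpa1 rose by 1.41 ± 0.09 (adjusted p = 2.71e-09) in males and by 0.46 ± 0.09 (adjusted p = 0.000268) in females. Rpa3 rose by 1.16 and 1.22.

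Both genes of Okazaki fragment processing rose. Lig1, the ligase that seals the fragments, was at 324, 377 and 275 CPM in male PGCs, 160.4, 148 and 158 CPM in male soma, 611, 590.0 and 596 CPM in female PGCs and 149, 169.8 and 149 CPM in female soma. It rose by 0.93 ± 0.08 (adjusted p = 6.7e-08) in males and 1.56 ± 0.08 (adjusted p = 5.17e-10) in females. Fen1, the flap nuclease, rose by 0.93 and 1.15, with the limit on overlapping exons given above.

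Of the 2 genes of ribonucleotide reductase, which makes deoxynucleotides, only Rrm1 passed against soma in the fit of all libraries, and only in males. Rrm1, the large subunit, was at 215, 279 and 185 CPM in male PGCs, 199, 184 and 186 CPM in male soma, 224, 215 and 219 CPM in female PGCs and 170.2, 207 and 216 CPM in female soma. It rose by 0.28 ± 0.10 (adjusted p = 0.0195) in males, a call lost at 0.15 without male PGC replicate 2 and also without male soma replicate 2 or 3, and did not pass in females (0.12 ± 0.10, adjusted p = 0.275). Rrm2, the small subunit whose transcript is high in S phase, was at 44.1, 112 and 51.9 CPM in male PGCs and 105, 98.2 and 100 CPM in male soma. In females Rrm2 was at 152, 152 and 183 CPM in PGCs and 94.4, 161 and 129 CPM in soma. Male PGC replicate 2 alone of its group reached the level of soma. The Rrm2 difference was -0.42 ± 0.21 (adjusted p = 0.0763) in males and 0.29 ± 0.21 (adjusted p = 0.207) in females. Without male PGC replicate 2 it passed as lower in males at -0.73 (adjusted p = 0.000193).

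Mcm8 had the largest rise of all 49 genes in males. It forms a helicase with Mcm9 that acts in homologous recombination, and was at 101, 110.4 and 103 CPM in male PGCs, 10.3, 14.2 and 15.1 CPM in male soma, 125, 118 and 126 CPM in female PGCs and 15.6, 22.6 and 19.7 CPM in female soma. Its log2 change was 2.34 ± 0.11 (adjusted p = 1.27e-10) in males and 2.05 ± 0.11 (adjusted p = 7.27e-10) in females. Mcm10, which helps to activate the loaded helicase, was at 122, 124 and 123 CPM in male PGCs, 34.6, 33.2 and 35.3 CPM in male soma, 60.6, 55.0 and 62.0 CPM in female PGCs and 28.3, 44.0 and 36.9 CPM in female soma. It rose by 1.5 ± 0.10 (adjusted p = 2.95e-09) in males and 0.54 ± 0.10 (adjusted p = 0.000124) in females. Mcm9 rose by 0.95 and 0.59.

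On the per cell scale of the cell number table, which is scaled by spike-in RNA added per cell, 47 genes were higher and 1 lower in male PGCs than in male soma (64.0% and 19.8% of all genes). All 49 were higher in female PGCs than in female soma (77.2% of all genes, with 11.5% lower). The median log2 change was 2.65 in males and 3.53 in females, against 1.42 and 2.36 over all genes, so 41 genes in males and 46 in females were above the change of the median gene. Gins2 alone was lower in males, at -0.88 ± 0.38 (adjusted p = 0.0233), and without male PGC replicate 1 or 3 or male soma replicate 3 no gene was. Pole2 did not pass in males (0.37 ± 0.38, adjusted p = 0.366). The summed reads of the 49 genes per unit of library effective size were 14622, 17556 and 13286 in male PGCs and 2022, 1896 and 3698 in male soma. In females they were 17469, 14234 and 16370 in PGCs and 1166, 1266 and 1605 in soma. Male soma replicate 3 lay above its group over the whole table, with a median log2 value of 5.25 against 4.33 and 4.29.

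Between female and male PGCs the machinery did not shift as a block. In the read depth table, 20 genes were higher and 9 lower in female PGCs (32.8% and 32.5% of all genes), and the median log2 change was 0.12 against 0.01 over all genes. Their shares, 40.8% and 18.4%, lie on either side of those of all genes. In CPM 25 genes were above and 8 below in all 3 female libraries (40.6% and 29.0% of all genes). Without male PGC replicate 2 the counts were 25 higher and 8 lower (31.6% and 31.8% of all genes). They were 13 and 9 without male PGC replicate 1 (30.9% and 30.2%), and 14 and 13 without male PGC replicate 3 (30.7% and 30.6%). The share higher was thus below that of all genes without replicate 1 or 3. Cdt1, Fen1, Mcm3, Pola2 and Pold2 gained a call as higher without replicate 2, and Mcm6 lost its call as lower. When male PGC replicate 1 or 3 was left out, in 1 or both cases the calls as higher of Cdc45, Gins1, Gmnn, Pold1, Pold3, Pole2, Prim2 and Rfc3 were lost.

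Of the 9 genes of origin recognition and loading, 3 were higher and 0 lower in female PGCs. The share higher was near that of all genes (32.8% higher and 32.5% lower). Of the 5 genes Cdc45 and Gins1 to Gins4, 4 were higher and 1 was lower. Orc1 differed by 0.83 ± 0.21 (adjusted p = 0.00338), Cdc6 by 0.73 ± 0.15 (adjusted p = 0.000798) and Gmnn by 0.60 ± 0.18 (adjusted p = 0.0099). The Gmnn call was lost without male PGC replicate 1 (0.46, adjusted p = 0.0534) or 3 (0.48, adjusted p = 0.0506). The other 5 origin recognition subunits did not pass, at -0.10 to 0.23. Cdc45, Gins1, Gins2 and Gins3 were higher, with Gins3 at 1.14 ± 0.16 (adjusted p = 2.87e-05), the largest change of any of the 49 genes. The calls of Cdc45 and Gins1 were less stable: Cdc45 lost its own without male PGC replicate 1 or 3 or female PGC replicate 1 or 3 (adjusted p = 0.0522 to 0.118), and Gins1 with median centring and without male PGC replicate 1 or 3 or female PGC replicate 1 or 2 (adjusted p = 0.0581 to 0.153). Female PGC replicate 3 had the lowest Gins3 level of its group, 33.9 CPM, and also the lowest summed level of meiotic entry genes, 3958 CPM against 5410 and 5486 CPM, and the part of that in the Gins3 value was not tested. Gins4 went the other way, at -0.69 ± 0.09 (adjusted p = 1.6e-05). Gins2 differed by 0.72 ± 0.17 (adjusted p = 0.002) and remained below soma in both sexes.

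Of the helicase ring Mcm5 was higher in female PGCs (0.46 ± 0.11, adjusted p = 0.00213), and Mcm2 (-0.59 ± 0.11, adjusted p = 0.000271), Mcm6 (-0.24 ± 0.09, adjusted p = 0.0352) and Mcm7 (-0.59 ± 0.09, adjusted p = 7.71e-05) were lower. Mcm3 and Mcm4 were at 0.10 and 0.04. Mcm10 at -0.94 ± 0.10 (adjusted p = 1.39e-06) and Mcm9 at -0.50 ± 0.09 (adjusted p = 0.000306) were lower as well, while Mcm8 differed by 0.07 ± 0.11 (adjusted p = 0.586). Without male PGC replicate 2 Mcm2 was at -0.45, Mcm7 at -0.51 and Mcm10 at -0.93, all still called, and Mcm6 was at -0.13 (adjusted p = 0.179). Mcm6 also lost its call without female PGC replicate 1 or 2.

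Primase and the polymerases had 7 of 11 genes higher and 1 lower in female PGCs (32.8% and 32.5% of all genes). Of the 7, Pold3 lost its call in 9 of the settings tried, among them the replicate block (adjusted p = 0.0551), median centring (adjusted p = 0.0961) and the fit without female soma replicate 1 (adjusted p = 0.0509). Pole2 lost it without male PGC replicate 1 or 3 or female PGC replicate 1 or 3, Prim2 without male PGC replicate 1 or female PGC replicate 1, and Pold1 without male PGC replicate 3. Pole4 led at 0.92 ± 0.09 (adjusted p = 8.76e-07), followed by Pole at 0.47 ± 0.06 (adjusted p = 7.73e-06) and Prim1 at 0.45 ± 0.11 (adjusted p = 0.00299), while Pole3 was lower at -0.41 ± 0.10 (adjusted p = 0.00297). Lig1 was higher at 0.61 ± 0.08 (adjusted p = 1.37e-05). Cdc7 was higher at 0.25 ± 0.07 (adjusted p = 0.00708), and Dbf4 did not pass (0.03 ± 0.09, adjusted p = 0.835). Of the clamp loader Rfc3 and Rfc4 were higher (0.36 and 0.30, calls lost for Rfc3 without male or female PGC replicate 1 and for Rfc4 without female PGC replicate 2) and Rfc1, the large subunit, was lower at -0.53 ± 0.06 (adjusted p = 6.77e-06), with 257, 247 and 269 CPM in male and 183, 179 and 178 CPM in female PGCs. Pcna differed by -0.05 ± 0.13 (adjusted p = 0.767), with female values inside the male range.

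In the read depth table Rpa1 had the largest decrease of the 49 genes, at -0.95 ± 0.09 (adjusted p = 6.2e-07), while Rpa2 and Rpa3 were both at 0.02. Mcm10 was close to Rpa1, and with voom it was slightly lower (-1.194 for Mcm10, -1.188 for Rpa1). Rrm2 was higher in female PGCs by 0.93 ± 0.21 (adjusted p = 0.0013), and by 1.25 without male PGC replicate 2. Rrm1 differed by -0.14 ± 0.10 (adjusted p = 0.253). In CPM all 3 female PGC libraries exceeded all 3 male ones for Rrm2, although male PGC replicate 2 was at 112 CPM and the other male PGC libraries at 44.1 and 51.9 CPM.

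**Figure D3:**
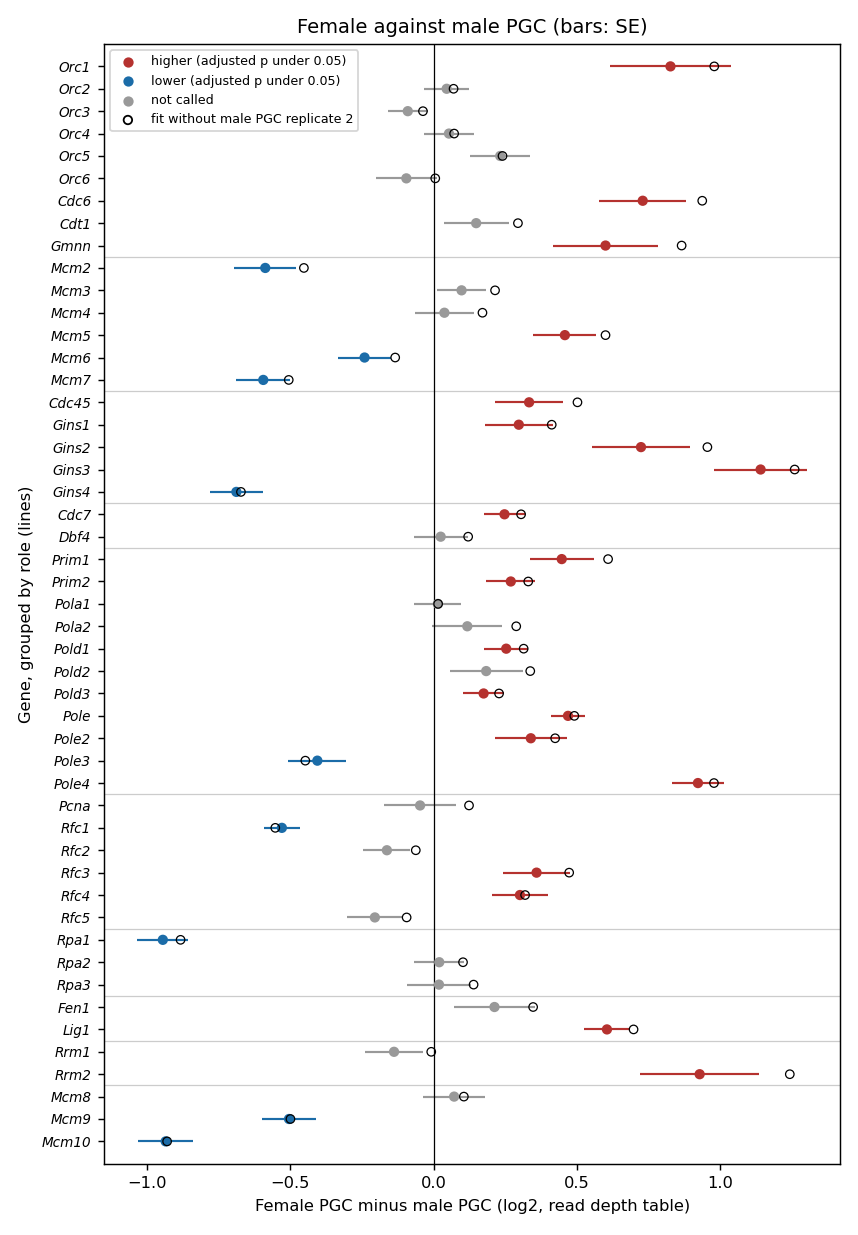
Log2 change of female against male PGCs (horizontal axis, read depth table) for each of the 49 genes (vertical axis, grouped by role), with bars for the SE. Red marks the 20 genes called higher, blue the 9 called lower and grey the rest, and open circles give the fit without male PGC replicate 2, which lie to the right for most genes.

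Per cell, 8 genes were higher and 5 lower in female PGCs (24.3% and 17.7% of all genes), with a median of 0.21 against 0.08 over all genes. The 8 were Orc1, Cdc6, Gmnn, Gins2, Gins3, Pole4, Lig1 and Rrm2. The 5 were Mcm2, Mcm7, Mcm10, Gins4 and Rpa1, the last at -1.12 ± 0.28 (adjusted p = 0.000255). All 13 had passed in the same direction in the read depth table. The per cell spread is wider, and without male soma replicate 3, which enters the shared estimate of the spread, 17 genes were higher and 8 lower.

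Because subunits of 1 complex changed in opposite directions, their ratio within a library was computed from reads per kilobase. The pairs were chosen after their values were seen, so no test is given. The ratio of Mcm5 to Mcm7 was 0.509, 0.599 and 0.532 in male PGCs, 0.921, 0.858 and 0.843 in male soma, 1.36, 1.5 and 1.19 in female PGCs and 0.740, 0.719 and 0.796 in female soma. Mcm5 was thus the scarcer transcript in male PGCs and the more abundant in female PGCs, with soma between them. The ratio of Rpa1 to Rpa2 was 0.504, 0.475 and 0.498 in male PGCs and 0.222, 0.225 and 0.197 in female PGCs, and 0.633 to 0.836 in soma of both sexes. That of Gins3 to Gins4 was 0.110, 0.127 and 0.0753 in male PGCs, 0.728, 0.800 and 0.364 in female PGCs and 0.192 to 0.331 in soma. That of Pole4 to Pole3 was 0.742, 1.09 and 0.922 in male PGCs, 2.83, 3.20 and 3.34 in female PGCs and 1.87 to 2.70 in soma. A ratio within a library does not depend on scaling between libraries, and male PGC replicate 2 was the male PGC library nearest to female PGCs in all 4.

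**Figure D4:**
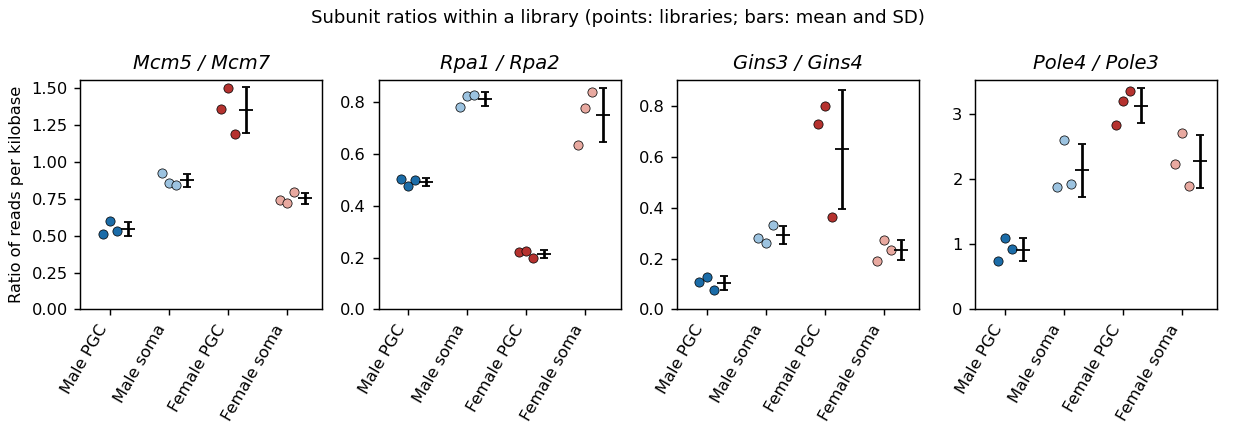
Ratio of reads per kilobase between subunits of the same complex (vertical axes) in each group (horizontal axis); points are the libraries and bars the mean and SD of 3. Male and female PGC points do not overlap in any of the 4 ratios, and they lie on opposite sides of soma for Mcm5 over Mcm7, Gins3 over Gins4 and Pole4 over Pole3.

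Soma showed little difference between the sexes. In the read depth table, 2 genes were higher and 0 lower in female soma (13.3% and 11.0% of all genes) by limma, with 5 higher and 1 lower at an unadjusted p under 0.05, and voom called 1 higher and 0 lower. The median change was -0.01 against 0.01 over all genes. In CPM 6 genes were above and 2 below in all 3 female soma libraries (22.7% and 18.1% of all genes). Pold3 was at 67.1, 68.0 and 58.4 CPM in female soma and 45.5, 41.1 and 46.8 CPM in male soma, a difference of 0.38 ± 0.07 (adjusted p = 0.0015). Mcm8 differed by 0.37 ± 0.11 (adjusted p = 0.0242), a call lost with voom and without male soma replicate 1 or female soma replicates 2 or 3. The order of Mcm8 over the female soma libraries, 15.6, 22.6 and 19.7 CPM, can be set beside the germ cell marker sums there of 99.0, 155 and 15.5 CPM, and the part of germ cell RNA in the difference was not tested. Orc1 showed a higher value in the same library, 24.1 CPM in female soma replicate 2 against 12.0 and 12.3 CPM, and that library was the highest of its group for 30 of the 49 genes.

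Per cell, 43 genes were lower and 0 higher in female than in male soma by limma (63.6% and 2.86% of all genes). At an unadjusted p under 0.05, 45 were lower and 0 higher. Their median of -0.88 was close to that of all genes at -0.86, and after centring each library on its median 2 were higher and 0 lower. Without female soma replicate 1 the count of lower genes was 21.

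The difference between the sexes in the PGC change over soma was tested directly as an interaction. In the read depth table the change was larger in females for 11 genes and larger in males for 7 (27.9% and 28.9% of all genes). Gins3 differed most in favour of females, by 1.30 ± 0.23 (adjusted p = 0.000303), followed by Pole4 at 0.92 and Cdc6 at 0.88. In favour of males Mcm10 led at -0.96 ± 0.14 (adjusted p = 4.68e-05), followed by Rpa1 at -0.95 and Gins4 at -0.76. Per cell the change was larger in females for 26 genes and larger in males for 0 (42.8% and 5.16% of all genes), with 35 and 0 at an unadjusted p under 0.05. After centring each library on its median, 10 were larger in females and 9 in males.

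Lists of related genes were counted in the same fits. They were written with earlier results of the same data known, their counts are descriptive, and no list was tested against another or against the 49 genes. Over all genes, the shares higher and lower were 39.1% and 43.7% in male PGCs against soma, 38.7% and 42.3% in female PGCs against soma, and 32.8% and 32.5% in female against male PGCs. Of 25 measured genes of the replisome and licensing outside the 49, 17 were higher and 1 lower in male PGCs than in soma, and 20 higher and 3 lower in female PGCs. Top2a, the topoisomerase that untangles replicated DNA, was at 936, 1189 and 881 CPM in male PGCs and 981, 958 and 871 CPM in female PGCs, with 306 to 410.5 CPM in soma. Top1 went against them, with 147 to 152 CPM in male PGCs, 176 to 198 CPM in female PGCs and 279 to 343 CPM in soma. Between female and male PGCs 9 of the 25 were higher and 5 lower, with a median log2 change of 0.13 against 0.01 over all genes. Ticrr, which helps to load Cdc45, was at 40.4, 75.3 and 43.4 CPM in male PGCs and 199.6, 199.7 and 149 CPM in female PGCs, higher in females by 1.32 ± 0.16 (adjusted p = 6.57e-06). Chtf8, of the alternative clamp loader, was lower by 1.01 in females (-1.01 ± 0.07, adjusted p = 5.36e-08).

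Of 11 genes that assemble chromatin behind the fork, 8 were higher and 1 lower in male PGCs than in soma, and 7 and 0 in female PGCs. Between the PGC groups 3 were higher in females, among them Asf1b, a histone chaperone (1.21 ± 0.16, adjusted p = 1.7e-05), and 1 was lower, Ssrp1 of the FACT complex (-0.94 ± 0.08, adjusted p = 2.33e-07). Of 24 regulators of S phase entry, 12 were higher and 6 lower in male PGCs than in soma, 12 and 10 in female PGCs, and 6 and 8 between female and male PGCs. The shares of lower S phase regulators in female PGCs, against soma and against male PGCs, were near those of all genes (42.3% and 32.5%). Ccne2, a cyclin that drives entry into S phase, was at 16.3, 20.2 and 11.8 CPM in male PGCs, 16.9 to 20.2 CPM in male soma, 152, 150.4 and 88.5 CPM in female PGCs and 19.3 to 44.8 CPM in female soma. It was higher in female than in male PGCs by 2.17 ± 0.21 (adjusted p = 1.03e-06). Skp2, part of the ligase that marks Cdkn1b for destruction, was lower by 1.44 (-1.44 ± 0.13, adjusted p = 3.73e-07).

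Of 22 nucleotide synthesis genes, 6 were higher and 12 lower in female than in male PGCs (32.8% and 32.5% of all genes), with a median log2 change of -0.28 against 0.01 over all genes. Against soma 18 were higher and 2 lower in male PGCs and 12 higher and 3 lower in female PGCs. Samhd1, which degrades deoxynucleotides, was at 223, 178 and 214 CPM in male PGCs and 62.4, 65.1 and 67.5 CPM in female PGCs (-1.41 ± 0.07, adjusted p = 4.14e-09). Rrm2b, the alternative small subunit of ribonucleotide reductase, was at 7.84, 10.8 and 10.9 CPM in male PGCs and 46.4, 38.0 and 36.4 CPM in female PGCs (1.28 ± 0.12, adjusted p = 6.56e-07). Of 14 translesion and repair polymerases, 6 were higher and 5 lower in male PGCs than in soma, 8 and 3 in female PGCs, and 8 and 2 between female and male PGCs. Rev3l, the catalytic subunit of polymerase zeta, was at 53.4, 47.0 and 78.0 CPM in male PGCs and 271, 252 and 225 CPM in female PGCs, with 244 to 269.8 CPM in male soma and 146 to 172 CPM in female soma.

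Of 20 mitotic genes, 14 were higher and 0 lower in male PGCs than in soma and 15 higher and 2 lower in female PGCs, and between female and male PGCs 2 were higher and 13 lower (32.8% and 32.5% of all genes), with a median log2 change of -0.42 against 0.01 over all genes. Ccnb1, the mitotic cyclin, was at 501, 575 and 473 CPM in male PGCs and 164, 141 and 258 CPM in female PGCs, lower by 1.34 (-1.34 ± 0.15, adjusted p = 2.43e-06). Summed, the mitotic genes were at 4240, 5232 and 4300 CPM in male PGCs and 3407, 3276 and 3855 CPM in female PGCs, which did not overlap. The sums of the 49 replication genes in male PGC replicates 1 and 3 were below the female range, and replicate 2 fell within it. In that library 18 of the 20 mitotic genes and 21 of the 25 other replisome genes were also the highest of the group.

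Meiotic entry genes, 15 in all, were higher in PGCs than in soma in each sex, and 12 were higher and 0 lower in female than in male PGCs. Stra8, which is required for entry into meiosis, was at 4.40, 0.943 and 4.18 CPM in male PGCs and 626, 616 and 448 CPM in female PGCs. In female soma Stra8 was at 10.1, 40.8 and 0.254 CPM. Of 8 cell cycle inhibitors and genes of male arrest, 4 were higher and 2 lower in PGCs than in soma in each sex, and 4 higher and 3 lower in female than in male PGCs. Nanos2, which promotes the male germ cell fate, was at 81.0, 38.5 and 75.1 CPM in male PGCs and 0.310 to 0.627 CPM in female PGCs. Male PGC replicate 2, the library with the highest replication genes, had the lowest Nanos2 and Stra8 of its group, and whether these go together was not tested.

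**Figure D5:**
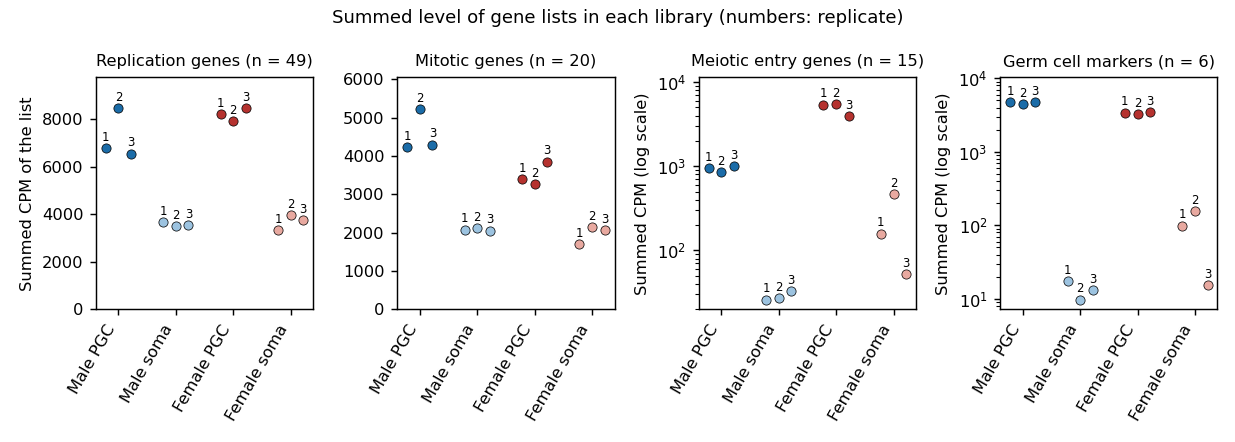
Summed CPM of the 49 replication genes, 20 mitotic genes, 15 meiotic entry genes and 6 germ cell markers (vertical axes; the last 2 on a log scale) in each group (horizontal axis), with the replicate number at each point. Replication sums in female PGCs are 7892 to 8453 CPM. Those of male PGC replicates 1 and 3 are below them at 6770 and 6545 CPM, and replicate 2 is within them at 8449 CPM. Mitotic sums are higher in all male PGC libraries than in female PGCs.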

How the data were processed

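Gene expression was measured in 12 libraries, 3 per group, grouped by their titles. The authors deposited 2 tables of log2 values over the same 12845 genes: 1 named as read depth normalized, for which the sources used here give no transform, and 1 whose abbreviated name was read as cell number normalized, since per the labels' protocols ERCC spike-in RNA was added per cell. The submitters' processing notes name build mm10 and limma 3.28.14, DESeq2 1.12.3, R 3.3.0, edgeR 3.14.0, HTSeq 0.6.1p1, Trim Galore 0.4.0 and TopHat2 2.0.9. The genes and lists were chosen with earlier results of these data known. Spike-in genes were not analysed here, so the per cell scaling was not checked.

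Each deposited log2 value of the cell number table was log2 of a whole number plus 0.5 over a library size (100.0% whole within 0.001 reads). These reads, scaled to their total over the 12845 genes, gave the CPM, and CPM per kilobase of the longest principal transcript. Reads outside these genes are not in that total. Both tables were fitted with limma 3.58.1 in R 4.3.3 (4 group means, intensity trend, empirical Bayes), with Benjamini-Hochberg adjustment over all 12845 genes and a threshold of 0.05. The procedure was tried on simulated data with noise drawn separately for each gene and library, and its outcome is not given here. That setting holds no shift shared by many genes of 1 library, such as that of male PGC replicate 2. Alternatives were median centring, a replicate block, dropping each library in turn, dropping the lowest 25% of genes, and voom on the reads with TMM scaling (trimmed mean of M values), and fits without male PGC replicate 2 combined with voom or with leaving out male soma replicate 3, which were chosen after seeing the data. The TMM factors for voom came from a function written for this purpose rather than from a package, and voom was used only as an alternative, because its reads were recovered from the deposited log2 values. Replicates of a group differed by more than sampling noise (chi-square over degrees of freedom 5.43 to 30.4). Depth limits the precision of genes with few reads.

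All 49 genes may be named. In each role group, values per library are given for the gene with the highest level per kilobase, the gene with the largest change of PGC against soma and the gene with the largest change between PGC groups, and for genes called against the majority. Cdc6 was added after its values were seen.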

Additional observations from a re-analysis of the deposited data

Results flagged for a closer look

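The PGC change over soma differed between the sexes for 18 of the 49 genes by the interaction test in the read depth table (limma, adjusted p under 0.05; 27.9% of all genes were larger in females and 28.9% in males). Values are the female minus the male log2 change. Larger in females were the helicase activators Gins3 (1.301), Gins2 (0.733) and Cdc45 (0.452), the loader Cdc6 (0.879), the helicase subunit Mcm5 (0.550) and the ligase Lig1 (0.627). The polymerase and primase genes Pole4 (0.925), Prim2 (0.466), Prim1 (0.458) and Pole (0.337) and the clamp loader gene Rfc3 (0.571) were also larger in females. Larger in males were Mcm10 (-0.962), the replication protein A subunit Rpa1 (-0.946), Gins4 (-0.756), the helicase subunits Mcm7 (-0.675) and Mcm2 (-0.501), the clamp loader subunit Rfc1 (-0.423) and Mcm9 (-0.355).

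Of these calls Cdc45, Mcm9 and Prim1 were lost in at least 1 setting. Cdc45 and Mcm9 were lost with voom. Mcm9 was also lost with the replicate block (adjusted p = 0.0508) and without male PGC replicates 2 or 3, male soma replicate 3, female PGC replicates 1 or 2, or female soma replicate 2. Prim1 was lost without male PGC replicates 1 or 3, male soma replicate 2, female PGC replicate 1 or female soma replicate 1. The Cdc45 call was also lost with median centring (adjusted p = 0.0523) and without male PGC replicates 1 or 3, male soma replicates 1 or 3, any of the female PGC replicates, or female soma replicate 1. Without male PGC replicate 2, 19 genes were larger in females, and Gmnn (0.89) and Rrm2 (1.02) were among those gained.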

How the results depend on the processing

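Of 330 recomputed counts of called genes, 294 were within 1.5 times the count first given, and 36 moved further. Leaving out each library in turn gave, in the read depth table, 36 to 39 genes higher and 2 to 6 lower in male PGCs than in male soma, with 6 lower without male PGC replicate 2 both by limma and by voom. For female PGCs against female soma the ranges were 40 to 44 higher and 1 to 3 lower, and 1 was lower after median centring and 1 with voom. For female against male PGCs they were 13 to 25 higher and 8 to 13 lower. For female against male soma they were 1 to 3 higher and 0 to 1 lower, with 1 higher by voom, with or without male PGC replicate 2. For the difference between the sexes in the PGC change they were 9 to 19 larger in females and 6 to 8 larger in males, and without male PGC replicate 2 voom gave 18 larger in females.

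In the cell number table the ranges were 46 to 47 higher and 0 to 1 lower in male PGCs than in male soma, 5 to 17 higher and 2 to 8 lower in female than in male PGCs, and 21 to 46 lower in female than in male soma. For the difference between the sexes they were 18 to 36 larger in females and 0 to 2 larger in males. Without male PGC replicate 2 and male soma replicate 3 together, 18 were higher in female than in male PGCs. Median centring removes the shift of the median gene by construction: it gave 2 lower in male PGCs, 1 lower in female PGCs against soma, 17 higher and 11 lower between female and male PGCs, 2 higher and 0 lower between female and male soma, and 10 larger in females and 9 larger in males. It also turned the sign in males of Cdc6 (-0.124), Gins3 (-0.075), Pole2 (-0.843) and Rrm2 (-0.251), and in females of Gins2 (-0.93), Pole2 (-0.322) and Rfc2 (-0.059).

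Of 5718 values of single genes recomputed, 5470 kept their side of the threshold, 119 came to pass it and 122 no longer passed it. The other 7 turned sign and passed before or after. A turn of sign in a gene that passed in neither fit was counted as unchanged. Same-numbered libraries did not deviate together (correlations -0.361 to 0.0715 in the read depth table). With 3 libraries per group and no label of origin, this cannot exclude that the numbers pair the libraries. With a replicate block 19 genes were higher and 9 lower in female than in male PGCs, and no count moved beyond 1.5 times. The cause of these shifts was not tested, and calls in low-level genes such as Gins2 and Pole2 rest on the fewest reads.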
